A study of Mus musculus with 8 samples.

Results

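The genes described here are the receptors of the epidermal growth factor (EGF) family and the ligands that bind the EGF receptor, in the mouse colon with and without epithelial Siglec-XII. They were chosen by name: 4 receptor genes (Egfr, Erbb2, Erbb3 and Erbb4) and 6 ligand genes (Egf, Tgfa, Areg, Ereg, Btc and Hbegf), which make 10 of the 52143 gene rows of the expression table. The study asked what the human receptor Siglec-XII, which mice do not have, changes when it is expressed in the intestinal epithelium. Siglec-XII belongs to a family of sialic acid receptors but, by the paper, cannot bind sialic acid itself. RNA of the baseline distal colon was sequenced in 4 control samples (Villin1-Cre-ERT) and 4 Siglec-XII samples (SIGLEC12-Villin1-Cre-ERT, named SiglecXII in the sample titles). Both groups carried a tamoxifen-activated Cre recombinase under the Villin1 promoter, which acts in intestinal epithelial cells, and both received tamoxifen (10 mg/ml) for 5 days, starting at 8 weeks of age, with the colon taken 7 days after the last dose. Only the Siglec-XII mice carried, at the ROSA26 locus, the SIGLEC12 transgene behind a CAG promoter and an EGFP-stop cassette that Cre removes. All mice were female, and the controls were littermates. The series text speaks of 3 mice for each condition while 4 samples a group were deposited, and no label ties a sample to an animal, and the methods mention technical replicate libraries, so p-values measure the spread between these samples, which may be technical in part. The RNA came from pieces of whole colon, in which fewer cells of a type and less RNA per cell cannot be told apart. SIGLEC12, EGFP and Cre are not among the genes of the table, so the transgene could not be checked in these samples.

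EGF receptors are transmembrane tyrosine kinases that pair with each other when a ligand binds, phosphorylate each other's tails and switch on the RAS-ERK and PI3K-AKT cascades. Erbb2 has no known ligand and is the favoured partner of the others, and Erbb3 binds neuregulins but has a nearly inactive kinase, so that the pair of them signals through the one's kinase and the other's PI3K docking sites. The ligands are made as membrane-bound precursors and released by metalloproteases, and in the gut this signalling is known for driving crypt cell division and repair of the epithelium.

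Values are TPM, a share of all transcripts scaled for transcript length, or log2(TPM + 1) where a difference is given. The receptors of this colon tissue were in the main Erbb3 and Erbb2, and the leading ligand was Areg. Erbb3 averaged 66.0 ± 18.4 TPM (SD, n = 4) in the control samples and 63.7 ± 15.8 in the Siglec-XII samples. Erbb2 averaged 59.5 ± 10.4 and 55.5 ± 14.8 TPM. Both stood among the more abundant transcripts, since only 3.79% of the genes in the table had a control mean at or above that of Erbb3 and 4.07% at or above that of Erbb2. Egfr itself, the receptor that gave the family its name, averaged 6.93 ± 0.516 TPM in the controls and 5.89 ± 1.34 in the Siglec-XII samples. Erbb4, the neuregulin receptor best known from heart and brain, was listed between 0.00296 and 0.0178 TPM in the 8 samples and so was near 0 everywhere. The order of the ligands in the controls was Areg with 20.8 ± 3.90 TPM, Hbegf with 14.8 ± 8.65, Tgfa with 11.8 ± 1.44, Btc with 5.07 ± 1.31, Egf with 1.43 ± 0.355 and Ereg with 0.653 ± 0.197.

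Not every step of this order exceeded the spread between the control samples. The control ranges overlapped for Erbb3 and Erbb2 (means 1.11-fold apart), for Areg and Hbegf (1.41-fold), for Hbegf and Tgfa (1.26-fold) and for Egfr and Btc (1.37-fold). They did not overlap for Erbb2 above Areg (2.86-fold), Tgfa above Egfr (1.7-fold), Btc above Egf (3.55-fold), Egf above Ereg (2.19-fold) and Ereg above Erbb4 (67.3-fold), and those 5 steps had the same direction within each of the 4 Siglec-XII samples. Amphiregulin, the product of Areg, thus stood above every other ligand by its control mean, but control 1 had more Hbegf than Areg.

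**Figure D1:**
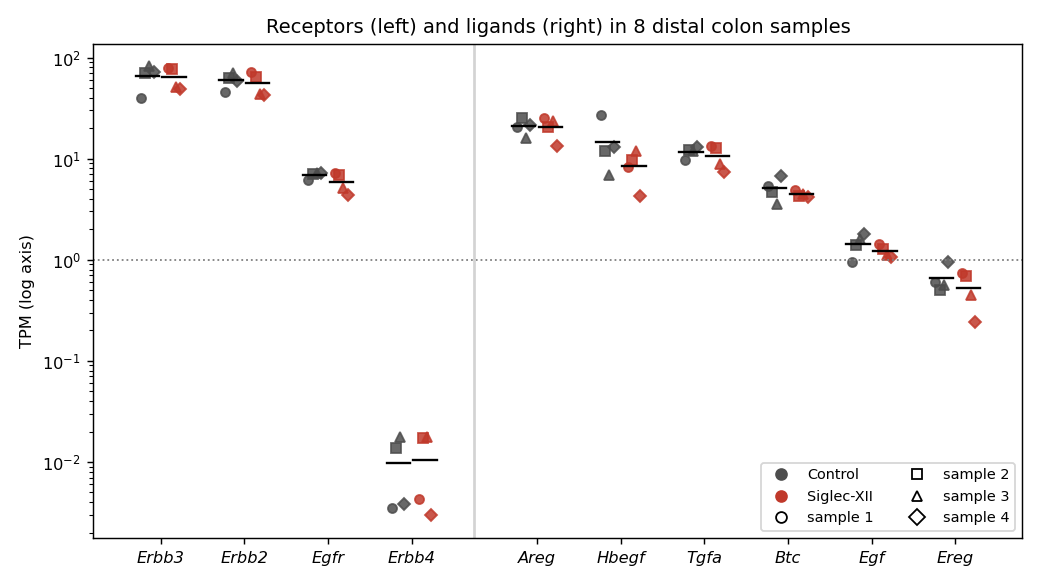
Level of the 4 receptors and 6 ligands in TPM on a log axis, with 1 point a sample (grey, control; red, Siglec-XII; the shape gives the sample number) and a bar at each group's mean (n = 4). Erbb3 and Erbb2 lie between 39.4 and 81.6 TPM in every sample, Erbb4 near 0, and the red and grey points of each gene overlap.

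For each gene the values below are given in sample order, controls 1 to 4 and then Siglec-XII samples 1 to 4. Erbb3 was at 39.4, 70.3, 81.6 and 72.5 TPM in the controls and at 77.9, 76.9, 51.5 and 48.7 in the Siglec-XII samples. Erbb2 was at 45.9, 62.8, 70.8 and 58.5 TPM, and at 71.6, 64.5, 43.8 and 42.1. In both genes the samples with little message were control 1 and Siglec-XII samples 3 and 4, while Siglec-XII samples 1 and 2 were level with the upper controls, so the groups overlapped. Egfr was at 6.17, 7.01, 7.28 and 7.24 TPM in the controls and at 7.18, 6.84, 5.11 and 4.40 in the Siglec-XII samples, with samples 3 and 4 below all others. The summed TPM of the 4 receptors was 91.5, 140.1, 159.7 and 138.2 in the controls and 156.7, 148.2, 100.4 and 95.2 in the Siglec-XII samples, or 132.4 ± 28.9 against 125.1 ± 31.8 (SD, n = 4).

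The receptors' proportions were steadier than their sum. Erbb3 made 49.2 ± 4.17% of receptor TPM in the controls and 51.0 ± 0.915% in the Siglec-XII samples, Erbb2 45.4 ± 3.34% and 44.3 ± 1.02%, and Egfr 5.39 ± 0.95% and 4.73 ± 0.244%. The ratio of Erbb2 to Erbb3 was 1.16, 0.893, 0.867 and 0.807 in the controls and 0.92, 0.839, 0.85 and 0.866 in the Siglec-XII samples, so control 1 alone had more Erbb2 than Erbb3. Erbb2 exceeded Egfr by 7.43-fold to 9.71-fold in the controls and by 8.56-fold to 9.97-fold in the Siglec-XII samples.

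Among the ligands, Areg was at 20.7, 25.4, 15.8 and 21.3 TPM in the controls and at 25.0, 20.7, 23.6 and 13.2 in the Siglec-XII samples. Hbegf, which encodes the heparin-binding ligand, was at 27.1, 12.0, 6.86 and 13.1 TPM in the controls and at 8.17, 9.68, 11.9 and 4.23 in the Siglec-XII samples. Control 1 held the highest Hbegf value and Siglec-XII sample 4 the lowest, with the other 6 samples between them and the groups overlapping. Tgfa, which encodes transforming growth factor alpha, was at 9.69, 12.3, 12.0 and 13.0 TPM in the controls and at 13.4, 12.9, 8.77 and 7.38 in the Siglec-XII samples. Its Siglec-XII samples split as those of Erbb2 did, with 1 and 2 at or near the top and 3 and 4 at the bottom. Btc (betacellulin) ranged from 3.59 to 6.73 TPM in the controls and from 4.17 to 4.87 in the Siglec-XII samples, and Egf from 0.949 to 1.78 and from 1.08 to 1.43 TPM. Ereg (epiregulin) stayed below 1 TPM in each of the 8 samples, between 0.498 and 0.94 in the controls and between 0.244 and 0.738 in the Siglec-XII samples.

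Summed over the 6 ligands, the level was 54.4 ± 10.0 TPM in the controls and 45.9 ± 10.5 in the Siglec-XII samples (SD, n = 4), with Siglec-XII sample 4 lowest at 30.3 and control 1 highest at 64.3. Areg made 38.5 ± 5.37% of it in the controls and 44.8 ± 2.47% in the Siglec-XII samples, and Hbegf 25.9 ± 11.1% and 18.1 ± 4.41%. The wide control spread of Hbegf came with the 42.1% share in control 1, since controls 2 to 4 had 21.3%, 16.9% and 23.0%.

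**Figure D2:**
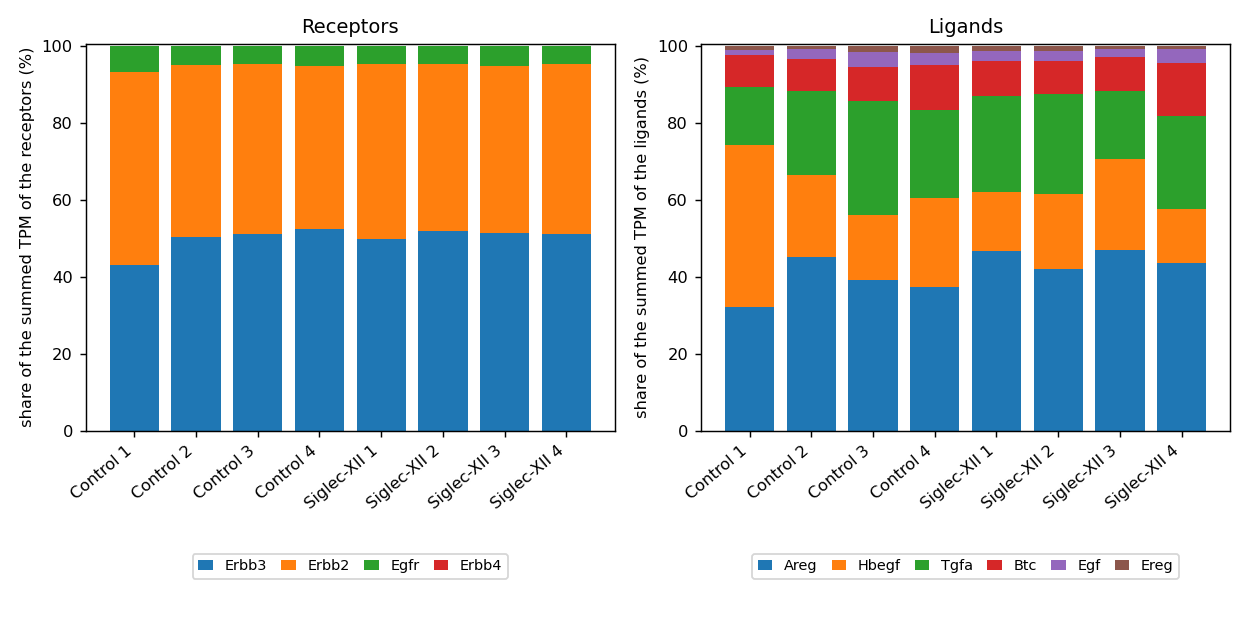
Share of each gene in the summed TPM of the receptors (left) and of the ligands (right), in percent, with 1 bar a sample. Erbb3 and Erbb2 fill nearly all of every receptor bar and Egfr 4.56% to 6.75% of it, while the share of Hbegf among the ligands is 42.1% in control 1 and smaller in the other 7 samples.

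Between the groups no member passed the test. A gene entered it with at least 1 TPM in at least 4 of the 8 samples, which held for 13164 genes and for 8 of the 10 members (not Ereg and Erbb4), and limma was fitted to all of them at once. None of the 8 had an adjusted p of at most 0.05, against 5 of all genes tested (0.038%), and none had an unadjusted p of at most 0.05, against 8.87% of all genes tested. No member's groups were separated, with all samples of one group above all of the other, in either direction. The differences, Siglec-XII minus control, were below 0 for 8 of 8 members tested, but so were 78.1% of all genes, and the members' median of -0.13 on the log2(TPM + 1) scale lay beside a median of -0.15 for all genes tested.

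Among the receptors, Egfr differed by -0.22 (SE 0.161, 95% interval -0.59 to 0.14, limma adjusted p = 0.552), Erbb2 by -0.12 (SE 0.201, -0.57 to 0.34, adjusted p = 0.777) and Erbb3 by -0.03 (SE 0.249, -0.59 to 0.53, adjusted p = 0.954). All of these intervals span 0 and reach past 0.5 log2 units on the lower side. Hbegf had the lowest difference of the ligands, -0.65 (SE 0.396, -1.55 to 0.24, adjusted p = 0.518), and also the widest interval. Without control 1 the Hbegf difference was -0.32. Tgfa differed by -0.17 (-0.61 to 0.28), Btc by -0.14 (-0.52 to 0.24), Egf by -0.12 (-0.45 to 0.21) and Areg by -0.03 (-0.51 to 0.45), with limma adjusted p-values of 0.683, 0.694, 0.688 and 0.951. A two-sided exact permutation test of single members over the 70 ways to split the samples, whose smallest possible p is 0.0286, gave p = 0.2 for Egfr, p = 0.229 for Hbegf and p = 0.486 for Ereg.

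The sign of the small differences depended on how samples were put on a common scale. The median gene of a sample lay 0.16 and 0.30 log2 units below the mean over samples in Siglec-XII samples 3 and 4 and at most 0.04 below it in the other 6. After each sample was centred on its own median, 2 of the 8 members tested were below 0, Egfr with -0.01 and Hbegf with -0.44, and Erbb3 (0.18), Areg (0.18), Erbb2 (0.09), Egf (0.09), Btc (0.07) and Tgfa (0.05) were above it. Of all genes tested, 38.5% were below 0 after centring, and their median was 0.06 beside 0.08 for the members. Without Siglec-XII samples 3 and 4, Erbb3 was 0.28 and Erbb2 0.21 higher than in the controls, and no member had an unadjusted limma p of at most 0.05 there either.

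**Figure D3:**
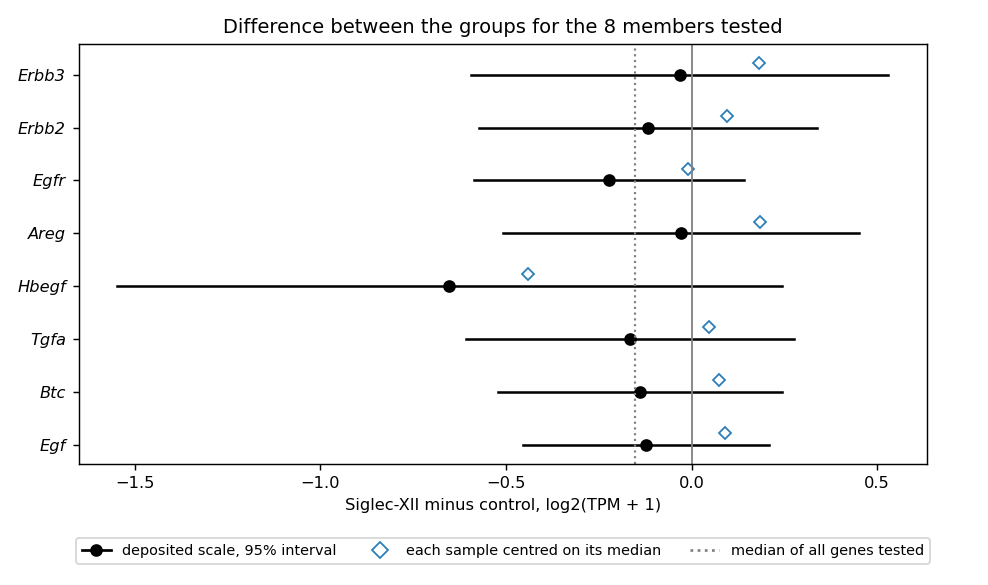
Difference between the groups, Siglec-XII minus control on the log2(TPM + 1) scale, for the 8 members tested, with the 95% interval of the limma fit (black), and the value after centring each sample on its median (blue diamonds). Every interval spans 0, the dotted line marks the median of all genes at -0.15, and after centring the diamonds of Egfr and Hbegf alone are below 0.

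Samples differed within groups by as much as the groups did, and the members moved together in part. The pooled standard deviation within groups was 0.67 log2 units for Hbegf and 0.41 for Erbb3, beside a median of 0.24 over all genes tested, and only 4.93% of genes tested had a larger one than Hbegf. Egfr (0.21), Btc (0.23) and Egf (0.17) varied less than the median gene. Over the 8 samples, Erbb2 went with Erbb3 (Pearson r = 0.915, exact permutation p = 0.00568, adjusted over 36 pairs 0.0426, Spearman rho = 0.881, exact p = 0.00724, adjusted 0.0869). Without the 2 samples farthest from the median of the gene named first, which here are Siglec-XII samples 3 and 4, r was 0.942, and with each sample centred on its median it was 0.864. Egfr went with Tgfa (r = 0.965, exact permutation p = 0.00171, adjusted 0.0308, rho = 0.714, exact p = 0.0576, adjusted 0.207), at r = 0.861 without those samples. Erbb2 went with Tgfa at r = 0.914 and with Egfr at r = 0.886 (exact permutation p = 0.00355 and 0.00124, adjusted 0.0426 and 0.0308, rho = 0.786 for both, exact p = 0.0279, adjusted 0.126), with 0.821 and 0.858 when the same 2 samples were left out. After centring on the sample median, these 3 relations were weaker, at 0.701 for Egfr with Tgfa, 0.72 for Erbb2 with Tgfa and 0.68 for Erbb2 with Egfr.

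In all, 7 of the 36 pairs of the 9 members other than Erbb4 had an adjusted p of at most 0.05 by Pearson's r and 0 of these 7 by Spearman's rho. The pairs of Ereg with Tgfa (r = 0.834) and with Egfr (r = 0.817) rested on Siglec-XII samples 3 and 4, since r was 0.443 and 0.29 without them. Hbegf passed with none of the other 8 members, its r lying between -0.385 and 0.576 over the 8 samples. Its relation to the receptors depended on the samples used: without Siglec-XII samples 3 and 4, r over the 6 samples left was -0.987 with Erbb2, -0.949 with Erbb3 and -0.861 with Egfr, and over all 8 centred samples it was -0.785, -0.866 and -0.207. Control 1, with the most Hbegf and the least Erbb3 and Erbb2 of those 6, is among them. Such likeness was common in these libraries: 1764 genes (13.4% of those tested) followed Erbb2 with r over 0.9 and 2875 (21.8%) followed Egfr. The genes most like Erbb2 over the 8 samples were Slc6a6 (r = 0.995), Smad1 (0.994) and Lima1 (0.994), and those most like Egfr included Psme4 (0.998) and Prpf4 (0.997).

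Markers of cell types also differed between samples, and the lists did not all move alike. The summed level of 8 epithelial markers was 8607 TPM in control 1 and between 9454 and 12390 in controls 2 to 4, and between 8264 and 11750 in the Siglec-XII samples, so all 8 samples held epithelium. Averaged over its genes on the log2 scale, the epithelial list lay below the mean over samples by 0.26 in control 1, 0.20 in Siglec-XII sample 3 and 0.29 in sample 4, the samples with the least Erbb2 and Erbb3. The smooth muscle list lay 0.39 above its mean in control 1, 0.04 below it in Siglec-XII sample 3 and 1.14 below it in sample 4. The 6 smooth muscle markers summed to between 622.6 and 1003 TPM in the controls and between 303.3 and 650.7 in the Siglec-XII samples, and 3 of the 6 were lower with an unadjusted limma p of at most 0.05, against 7.67% of all genes tested. Without Siglec-XII samples 3 and 4 this held for 2 of the 6, against 1.57% of all genes tested. The 4 endothelial markers, low throughout, summed to between 4.09 and 5.09 TPM in the controls and between 1.94 and 3.44 in the Siglec-XII samples, without overlap, and 1 of the 2 tested, Pecam1 (named after its values were seen), was lower at that threshold (difference -0.59, limma adjusted p = 0.515). The 5 lymphocyte markers summed to 15.5 TPM in control 1, the sample with the most Hbegf, and to between 0.813 and 5.50 in the other 7. The part of tissue make-up in the members' values was not tested.

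**Figure D4:**
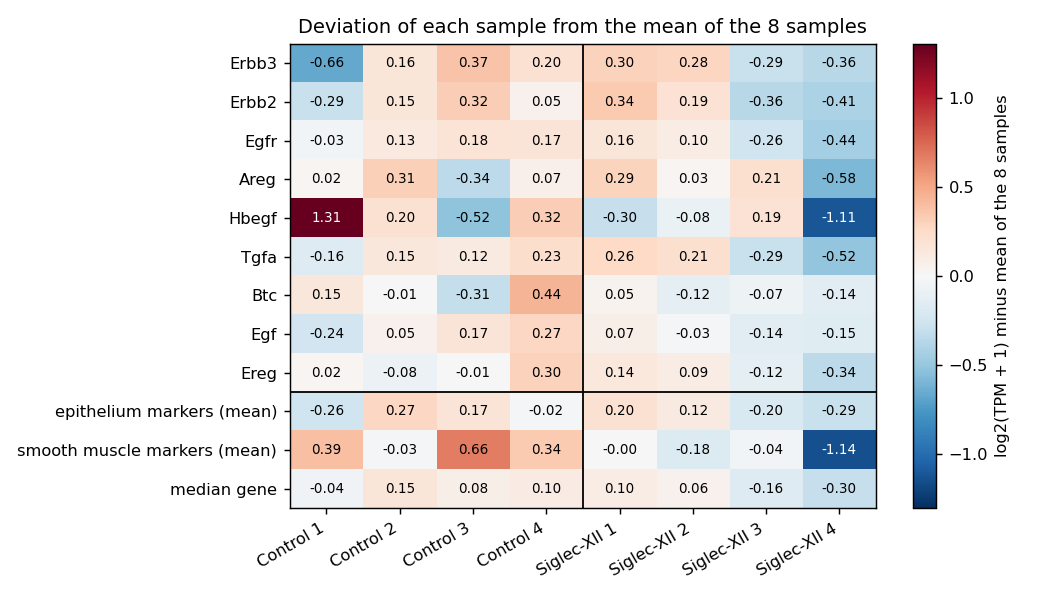
Log2(TPM + 1) of 9 members, of the means of the epithelial and smooth muscle marker lists and of the median gene in each sample, minus the mean of the 8 samples (red, above; blue, below). Control 1 and Siglec-XII samples 3 and 4 are below the mean in Erbb3, Erbb2, Tgfa, Egf and the epithelial markers, while Hbegf is 1.31 above it in control 1 and 1.11 below it in Siglec-XII sample 4.

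By position (GENCODE M21, GRCm38), 3 ligand genes lie side by side on chromosome 5: Ereg at chr5:91074622-91093646, Areg at chr5:91139599-91148432 and Btc at chr5:91357261-91402994, all within 328373 bases. Neighbours on the chromosome were unlike in level, with 0.653, 20.8 and 5.07 TPM in the controls. Erbb2 (chr11:98412470-98437716) and Egfr (chr11:16752203-16918158) are on chromosome 11, Erbb3 (chr10:128567523-128589652) on chromosome 10, Erbb4 (chr1:68032186-69108059) on chromosome 1, Tgfa (chr6:86195223-86275719) on chromosome 6 and Egf (chr3:129677565-129755316) on chromosome 3. Of the 31-base windows of the Egf transcripts, 9.58% also occur in transcripts of other genes, though Gm42697, the antisense gene that shares more of them than any other gene, had a mean of 0.00111 TPM. For Ereg the share was 2.95%, with 111 of 121 such windows in the overlapping antisense gene Gm19610. The mean of Gm19610 was 0.433 TPM beside 0.653 (controls) and 0.528 (Siglec-XII) for Ereg. Whether reads of Gm19610 entered the level of Ereg was not tested. The end of Erbb2 overlaps by 9 bases the end of Mien1 on the other strand, whose mean level was 173 TPM, and 0 of the windows of Erbb2 or Erbb3 were shared.

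The promoters of 3 of the members that went together (Erbb2, Egfr and Tgfa; that of Erbb3 was not matched) are shown with that of Areg, the leading ligand, whose pattern over samples was another. Each is RefSeq sequence of GRCm38.p6, plus strand, from 250 bases before the start site to 50 after it. Capitals mark matches on either strand to TATAAA (known as the TATA box, in 13.6% of 32851 mouse promoters of this length), GGGCGG (GC box, 35.7%), CCAAT (37.4%), TGACGTCA (cyclic AMP response element, 1.79%) and TGANTCA (AP-1 site, 7.81%). The windows are chr11:98412234-98412533 for Erbb2, chr11:16751953-16752252 for Egfr, chr6:86194972-86195271 for Tgfa and chr5:91139349-91139648 for Areg.
Erbb2: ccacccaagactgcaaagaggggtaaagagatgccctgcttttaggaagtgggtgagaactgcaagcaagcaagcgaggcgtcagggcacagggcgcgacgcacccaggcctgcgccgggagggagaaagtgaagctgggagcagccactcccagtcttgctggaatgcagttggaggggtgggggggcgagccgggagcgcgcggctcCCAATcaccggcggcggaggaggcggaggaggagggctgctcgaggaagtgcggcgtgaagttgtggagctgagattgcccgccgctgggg
Egfr: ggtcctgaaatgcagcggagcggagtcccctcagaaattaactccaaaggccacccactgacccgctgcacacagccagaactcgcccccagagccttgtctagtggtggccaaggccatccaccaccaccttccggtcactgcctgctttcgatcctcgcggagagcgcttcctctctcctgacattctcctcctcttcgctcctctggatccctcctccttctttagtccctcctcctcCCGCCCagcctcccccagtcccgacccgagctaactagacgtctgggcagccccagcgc
Tgfa: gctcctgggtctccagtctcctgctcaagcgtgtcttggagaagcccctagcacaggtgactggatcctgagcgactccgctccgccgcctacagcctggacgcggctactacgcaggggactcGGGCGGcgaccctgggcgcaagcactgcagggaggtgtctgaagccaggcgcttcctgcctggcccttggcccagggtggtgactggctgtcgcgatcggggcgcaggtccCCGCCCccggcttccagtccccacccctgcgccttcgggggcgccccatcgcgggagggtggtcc
Areg: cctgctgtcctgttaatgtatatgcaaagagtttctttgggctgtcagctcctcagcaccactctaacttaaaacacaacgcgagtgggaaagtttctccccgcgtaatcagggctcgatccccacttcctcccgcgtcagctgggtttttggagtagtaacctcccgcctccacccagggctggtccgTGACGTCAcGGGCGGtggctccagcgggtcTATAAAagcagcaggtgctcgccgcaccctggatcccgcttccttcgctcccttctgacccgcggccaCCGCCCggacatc

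Among the 5 motifs searched, the promoters of Erbb2, Egfr and Tgfa had none common to all of them and no TATAAA. Counted to the first base of a match, on either strand, Erbb2 held CCAAT 41 bases before the start, Egfr held GGGCGG 9 bases before it, and Tgfa held GGGCGG 126 and 15 bases before it. Areg held TATAAA 31 bases before the start, the cyclic AMP response element 61 bases before it, and GGGCGG 52 bases before and 38 bases after it. All were rich in G and C, with 66.0% in Erbb2, 62.3% in Egfr, 70.7% in Tgfa and 59.3% in Areg, beside a median of 52.7% over all promoters. Windows were matched for 7 of the 10 members, and those of Btc, Egf and Erbb4 held none of the 5 motifs. A match of letters is a description and says nothing about binding in these samples.

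The rest of the pathway was described with 79 genes grouped by role, of which 71 were tested and 0 had an adjusted p of at most 0.05 (smallest 0.515). At an unadjusted p of at most 0.05, 12 of the 71 were lower in the Siglec-XII samples (7.67% of all genes tested were) and 2 were higher (1.19% of all). The count depended on the samples used. Without Siglec-XII samples 3 and 4, 2 of the 71, Myc and Fos, had an unadjusted p of at most 0.05, against 2.75% of all genes tested. Leaving out 1 sample gave 7 without control 1, 7 without control 2, 4 without Siglec-XII sample 3 and 23 without Siglec-XII sample 1. The share of all genes tested was not computed for these fits, so their counts cannot be set beside it. The count also depended on scaling, with 5 lower (2.16% of all genes tested were) and 3 higher (8.64% of all) after median centring. Other ligands of the family were nearly silent, as Epgn, Nrg1, Nrg2 and Nrg3 stayed below 1 TPM in all 8 samples and Nrg4 reached 1 TPM in 1 sample.

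Of 7 ligand-shedding genes tested, 3 were lower at an unadjusted p of at most 0.05, where 7.67% of all genes tested were. Without Siglec-XII samples 3 and 4, 0 of the 7 passed that threshold in either direction, against 2.75% of all genes tested. Rhbdf2, which encodes iRhom2, the partner that brings the sheddase ADAM17 to the cell surface, averaged 8.06 TPM in the controls and 5.25 in the Siglec-XII samples (log2 difference -0.60, SE 0.237, 95% interval -1.13 to -0.06, limma adjusted p = 0.515). Rhbdf1, its paralogue, differed by -0.42 and Adam15, a membrane metalloprotease, by -0.29. Adam17 itself differed by -0.35 (95% interval -0.73 to 0.02) and Adam10, the sheddase of Egf and Btc, by -0.26 (-0.64 to 0.11). In log2 units, Rhbdf2 was at 3.22, 3.31, 2.99 and 3.18 in the controls and at 3.17, 2.80, 2.29 and 2.05 in the Siglec-XII samples, so Siglec-XII sample 1 lay among the controls. After centring, the difference was -0.38 for Rhbdf2 and -0.08 for Adam15, and Rhbdf2 alone of these 3 genes kept an unadjusted p of at most 0.05.

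Among the adaptors and kinases below the receptors, all 24 tested were below 0, with a median of -0.17, beside 78.1% and -0.15 for all genes tested. After centring 8 of the 24 were below 0, with a median of 0.04. Gab1, the docking protein that carries Shp2 and PI3K to the receptors, was at 3.50, 3.42, 3.57 and 3.50 log2 units in the controls and at 3.31, 3.30, 2.67 and 2.40 in the Siglec-XII samples. All 4 Siglec-XII samples lay below all 4 controls, as in 4.06% of all genes tested (difference -0.57, SE 0.214, 95% interval -1.06 to -0.09, limma adjusted p = 0.515). The difference was -0.19 without Siglec-XII samples 3 and 4. Pik3cb, a catalytic subunit of PI3K, differed by -0.67 (95% interval -1.16 to -0.17, limma adjusted p = 0.515). Grb2 and Shc1, the adaptors that join the receptors to RAS, differed by -0.18 (95% interval -0.53 to 0.18) and -0.17 (-0.61 to 0.28).

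Of 18 negative regulators, 2 were lower at an unadjusted p of at most 0.05, where 7.67% of all genes tested were. They were Sh3kbp1 (-0.54, 95% interval -0.93 to -0.15, limma adjusted p = 0.515), a partner of Cbl in receptor uptake, and Socs5 (-0.38, -0.76 to 0.00, adjusted p = 0.515). After median centring 1 of the 18, Sh3kbp1, was lower at that threshold, where 2.16% of all genes tested were. Errfi1, which encodes the inhibitor of the receptor kinase known as MIG6, differed by -0.25 (95% interval -0.68 to 0.18), and Lrig1, which marks receptors for degradation and is found in crypt stem cells, averaged 32.8 TPM in the controls and 30.4 in the Siglec-XII samples.

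Of the 10 phosphatases, Ptpn18, whose known substrate is the Erbb2 protein, was higher in the Siglec-XII samples. It was at 5.04, 5.34, 5.36 and 5.33 log2 units in the controls and at 5.64, 5.44, 5.55 and 5.48 in the Siglec-XII samples, and every Siglec-XII sample lay above every control, as in 1.05% of all genes tested. The difference was 0.26 (SE 0.104, 95% interval 0.03 to 0.50, limma adjusted p = 0.515), and 0.47 after centring (adjusted p = 0.459). Without Siglec-XII samples 3 and 4 it was 0.27, with an unadjusted p above 0.05. The ratio of Ptpn18 to Erbb2 in TPM was between 0.565 and 0.695 in the controls, 0.683 and 0.656 in Siglec-XII samples 1 and 2, and 1.05 and 1.03 in samples 3 and 4, where Erbb2 was low. Ptprs, a receptor-type phosphatase, was lower (-0.57, 95% interval -0.98 to -0.15, limma adjusted p = 0.515). Ptpn6 and Ptpn11, which encode Shp1 and Shp2, the phosphatases that bind the inhibitory motifs of Siglecs, differed by -0.12 (95% interval -0.44 to 0.20) and -0.35 (-0.83 to 0.12).

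Of the 14 ERK target genes, 12 were tested. At an unadjusted p of at most 0.05, 4 were lower (7.67% of all genes tested were) and 1 was higher (1.19% of all). After median centring 1 was lower, Myc (2.16% of all genes tested were), and 1 was higher, Fos (8.64% of all). Myc, the growth regulator, was at 5.02, 4.88, 4.25 and 4.67 log2 units in the controls and at 4.06, 4.10, 3.49 and 3.25 in the Siglec-XII samples, all of which lay below the lowest control. Its difference was -0.98 (SE 0.236, 95% interval -1.52 to -0.45, limma adjusted p = 0.515), or 25.6 against 12.6 TPM, and -0.63 without Siglec-XII samples 3 and 4. Fos, an immediate early gene, went the other way, with 5.22, 6.19, 6.10 and 6.32 log2 units in the controls and 6.92, 7.29, 6.72 and 5.88 in the Siglec-XII samples. Siglec-XII sample 4 lay among the controls (difference 0.75, SE 0.325, 95% interval 0.01 to 1.48, limma adjusted p = 0.515). Ccnd1, the cyclin of early cell cycle entry, differed by -0.67 (95% interval -1.29 to -0.05), Phlda1 by -0.59 (-1.18 to 0.00) and Dusp5, a phosphatase of ERK, by -0.43 (-0.85 to -0.01), each with a limma adjusted p of 0.515.

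**Figure D5:**
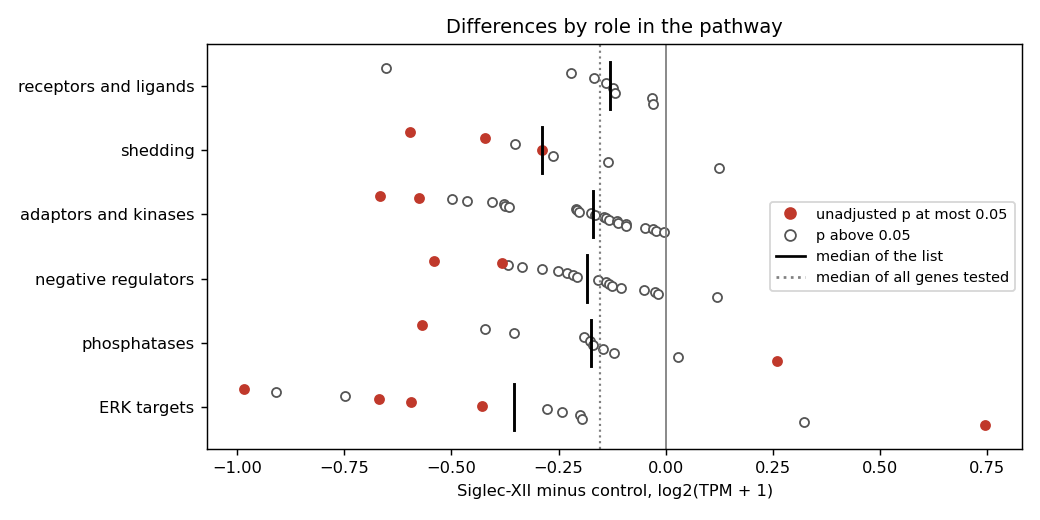
Difference between the groups, Siglec-XII minus control on the log2(TPM + 1) scale, for the 8 members and for 71 other pathway genes by role, with a point for each gene (filled, unadjusted limma p of at most 0.05), a bar at the median of each list and a dotted line at the median of all genes tested. The receptors and ligands hold no filled point, and the filled points right of 0 are Ptpn18 and Fos.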

How the data were processed

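Per the labels, RNA of 8 colon samples (4 a group) was sequenced as paired reads of stranded total RNA libraries, where the methods name an mRNA kit and 3 technical replicate libraries from each sample. The authors quantified transcripts with kallisto against GRCm38 (version 0.45.0 in the submitters' processing notes; the methods name another version and a human reference) and deposited 1 value per gene; the methods name featureCounts for counting at the gene level. The values deposited are log2 of TPM plus 1, which keep no read number, so the depth behind a value is unknown, no counting interval could be given and the precision is that of the replicates. TPM sum to the same total in each sample, so a change in abundant transcripts moves all others. Whether counting used strand is not given in the sources used here.

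Samples were grouped by their titles. Genes with at least 1 TPM in at least 4 samples (13164 of 52143) were fitted with limma 3.58.1 (R 4.3.3), with a variance trend, and p-values were adjusted by the Benjamini-Hochberg method over all of them (threshold 0.05). Of several rows with one symbol, that of the highest mean level was taken. Single genes were tested by exact permutation in R. Correlations were tested by exact permutation in Python, with ranks and p-value adjustment from scipy 1.17.1. The fit was tested on simulated data. The alternatives were other filters, a pseudocount of 0.1, quantile normalization, median centring, array weights, no moderation, a replicate block and leaving out samples. The members and gene lists were chosen with earlier results of these data known. The text names the members, the pathway genes with an unadjusted p of at most 0.05, a fixed set of others (Ptpn6, Ptpn11, Adam10, Adam17, Errfi1, Lrig1, Epgn, Nrg1 and Nrg4), and the 3 genes most like each of Erbb2 and Egfr, of which 1 is not reported here; Grb2, Shc1, Nrg2 and Nrg3 were named after their values were seen. Positions and transcripts are from GENCODE M21 (98.3% of gene identifiers matched) and promoters from RefSeq.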

Additional observations from a re-analysis of the deposited data

Results flagged for a closer look

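Over the 33 genes named by the rule, 66 groups of 4 samples were searched for a sample whose gap to its nearest neighbour exceeded Dixon's critical value for 4 samples when divided by the range of its group, which chance gives in about 3.3 of them, and 3 were found, none in a receptor or ligand. Ptpn18 in control 1 (5.04 log2 units, nearest control 5.33) had a gap of 0.916 of the range. Ptpn6 in the same sample (3.73, nearest 4.02) had a gap of 0.87, and Errfi1 in Siglec-XII sample 4 (4.35, nearest 4.82) a gap of 0.862. Control 1 was also the sample with the least Erbb3 and the most Hbegf.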

How the results depend on the processing

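Under every alternative run 0 members had an adjusted p of at most 0.05. Of 142 recomputed member differences, 110 kept their direction and 32 reversed, all with adjusted p above 0.05. Quantile normalization gave 0.0135 for Egfr, 0.0833 for Erbb3, 0.0224 for Egf, 0.0472 for Tgfa, 0.149 for Areg and 0.1001 for Btc. Centring on the median gave 0.0941 for Erbb2, 0.181 for Erbb3, 0.0904 for Egf, 0.0464 for Tgfa, 0.184 for Areg and 0.0732 for Btc, and array weights 0.0423 for Erbb2, 0.0725 for Erbb3, 0.0304 for Tgfa and 0.0273 for Areg. Without Siglec-XII samples 3 and 4, Egfr was at 0.0172, Erbb2 at 0.207, Erbb3 at 0.277, Tgfa at 0.155 and Areg at 0.143, and without control 1 as well, a choice made after seeing the data, Erbb2 was at 0.0896, Erbb3 at 0.0509, Tgfa at 0.0725 and Areg at 0.146. Leaving out 1 sample at a time moved Erbb3 from -0.258 to 0.0854 and Areg from -0.147 to 0.161. It gave between 0 and 1 members with an unadjusted p of at most 0.05 (Hbegf without control 3).

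Of the 71 pathway genes tested, 14 had an unadjusted p of at most 0.05, against 8.87% of all genes tested. That count was 7 after quantile normalization, 8 each under centring on the median, array weights and a variance without moderation, 2 without Siglec-XII samples 3 and 4, and 4 without control 1 as well. With 1 sample left out it was between 4 (without Siglec-XII sample 3) and 23 (without Siglec-XII sample 1). The cause was not tested. Of all genes tested, 10.8% passed under centring on the median and 2.75% without Siglec-XII samples 3 and 4. That share was not computed for the other alternatives, so their counts cannot be set beside it. The shared replicate numbers do not pair the samples (correlation of deviations -0.165, -0.204, 0.103 and -0.002), and with the replicate number as a block 0 members and 11 pathway genes had an unadjusted p of at most 0.05. Since TPM keep no depth, it cannot be said what the low levels of Erbb4 and Ereg could have shown.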
